A study of Mus musculus with 19 samples.

Results

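The regions described here are 673 sites in mouse neural stem cells at which the corepressor CBFA2T2 was called as bound in the presence of H3.3K27M but not of H3.3WT, and which lie away from protein-coding genes. They are the peaks of the H3.3K27M chromatin immunoprecipitation (ChIP-seq) list that share no base with any peak of the H3.3WT list and whose summit, the base of highest signal, lies outside every protein-coding gene and more than 1 kb from the nearest one. They were thus selected on the measured peak positions and summits of both lists, so that their absence from the H3.3WT list is no finding, and their fold enrichment and q, which come from the same calls, are given as a description. They make up 8.14% (95% Wilson interval 7.57 to 8.74%) of the 8272 peaks of the H3.3K27M list and 24.2% of its 2786 unshared peaks. Of all H3.3K27M peaks, 33.7% were unshared, against 49.5% of the 1360 intergenic ones and 40.1% of the 1141 intergenic peaks of the H3.3WT list.

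Both lists came from a neural stem cell line of mouse that lacks p53, NE-4C, in which H3f3a, one of the genes for the histone variant H3.3, had been knocked out, so the controls lack it as well. HA-tagged wild-type H3.3 (H3.3WT) or the HA-tagged H3.3K27M form, in which methionine replaces lysine 27, was then stably expressed, and the cells were kept in medium with 10% fetal bovine serum. The series holds 19 samples, among them another genotype that also lacks Cbfa2t2 and ChIPs of other targets, which were not analysed here. One CBFA2T2 library per genotype gave a peak list, with 6920 peaks for H3.3WT, so there was no replicate. Genotypes could not be compared by a test, no p-value is given, and every interval below covers counting error only. The depth of sequencing is unknown, since only peaks and no reads or coverage were at hand. The files hold binding and not expression, so the labelled cell type could not be checked against its markers. The labels do not say whether a line is 1 clone.

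CBFA2T2 (MTGR1) belongs to the MTG or ETO family, whose other members are RUNX1T1 and CBFA2T3. These proteins do not bind DNA themselves. They are brought to enhancers and promoters by DNA-binding factors such as basic helix-loop-helix and zinc finger proteins, and they recruit NCoR, SIN3 and histone deacetylases. MTG proteins are known to take part in Notch and Wnt signalling and in the choice between self-renewal and differentiation. H3.3K27M, found in diffuse midline glioma, inhibits the Polycomb methyltransferase EZH2, and H3K27me3 is lost from most of the genome in cells that carry it.

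The sequence beneath a summit could be read where the summit fell into the promoter window of a long non-coding RNA (lncRNA), from 250 bases before to 50 after its start. This held for 18 of the 673 peaks. The source of the windows gave a strand for the nearest coding gene of only 499 of the 673 peaks. Windows of some lncRNAs may therefore be missing too. The windows of 5 of the 18 lncRNAs, picked after their values were seen, are printed as examples. They come from RefSeq on GRCm38.p6 (the assembly of mm10) and run 5′ to 3′ along the lncRNA. Capitals mark each GGGCGG (the GC box bound by SP factors) and each CCAAT (the box bound by NF-Y) on either strand. A box on the other strand shows as its reverse complement. Every printed window holds such a box, while others of the 18, such as that of E130018N17Rik, hold neither. Jpx is the activator of Xist that lies beside Xist in the X inactivation centre, Firre is an X-linked nuclear organiser RNA, and Snhg3 is the host of small nucleolar RNAs.
Jpx, chrX:103493308-103493607, plus strand: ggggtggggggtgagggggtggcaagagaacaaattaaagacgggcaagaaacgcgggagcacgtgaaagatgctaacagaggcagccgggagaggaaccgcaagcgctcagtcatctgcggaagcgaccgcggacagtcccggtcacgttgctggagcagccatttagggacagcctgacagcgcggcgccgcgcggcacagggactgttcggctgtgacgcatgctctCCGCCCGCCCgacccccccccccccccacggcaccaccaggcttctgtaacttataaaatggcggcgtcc
1300002E11Rik, chr16:21794097-21794396, plus strand: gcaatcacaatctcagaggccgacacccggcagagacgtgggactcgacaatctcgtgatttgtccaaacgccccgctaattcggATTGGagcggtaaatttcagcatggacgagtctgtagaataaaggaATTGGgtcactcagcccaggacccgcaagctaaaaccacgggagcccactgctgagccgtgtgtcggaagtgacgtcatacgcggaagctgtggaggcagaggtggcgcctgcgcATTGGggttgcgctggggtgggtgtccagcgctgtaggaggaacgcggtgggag
2610035D17Rik, chr11:113201789-113202088, minus strand: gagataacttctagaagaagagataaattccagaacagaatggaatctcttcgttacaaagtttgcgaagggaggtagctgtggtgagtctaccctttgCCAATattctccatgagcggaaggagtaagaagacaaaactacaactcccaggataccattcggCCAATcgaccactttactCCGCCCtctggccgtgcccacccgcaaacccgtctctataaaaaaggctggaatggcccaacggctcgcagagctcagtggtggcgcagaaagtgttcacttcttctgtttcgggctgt
Snhg3, chr4:132353637-132353936, minus strand: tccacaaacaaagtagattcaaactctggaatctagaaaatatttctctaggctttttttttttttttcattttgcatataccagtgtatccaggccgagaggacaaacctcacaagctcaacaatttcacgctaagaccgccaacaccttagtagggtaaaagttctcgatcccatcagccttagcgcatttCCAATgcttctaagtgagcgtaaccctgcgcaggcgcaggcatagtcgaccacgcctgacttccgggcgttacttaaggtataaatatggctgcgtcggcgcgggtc
Firre, chrX:50635272-50635571, minus strand: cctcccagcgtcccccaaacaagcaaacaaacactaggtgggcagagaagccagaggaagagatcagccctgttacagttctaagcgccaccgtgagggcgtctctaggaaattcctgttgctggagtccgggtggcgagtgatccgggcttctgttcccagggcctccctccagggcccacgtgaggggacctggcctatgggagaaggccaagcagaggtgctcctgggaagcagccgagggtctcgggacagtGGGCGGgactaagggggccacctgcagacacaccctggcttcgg

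Of the 18 windows, 6 (33.3%, 95% Wilson interval 16.3 to 56.3%) held GGGCGG and 6 held CCAAT. The GC box was in 16.3% of all 11588 lncRNA windows, and in 24 of the 36 windows (66.7%) that held the summit of a shared intergenic peak. CCAAT was in 36.0% of all lncRNA windows and in 38.9% of those at shared peaks. The median number of CG dinucleotides was 12.5 per window at K27M-only peaks, 20.5 at shared intergenic peaks and 4 over all lncRNA windows. The lncRNA starts at K27M-only peaks thus had a median CG number between those of the other sets. The Jpx window, with 27 CG and a pair of overlapping GC boxes, carried the strongest of these peaks by fold, at 6.26-fold with a −log10 q of 6.34 and its summit 18 bases after the start. The summit at 1300002E11Rik lay 119 bases before the start, with 5.36-fold, in a window with 3 CCAAT boxes and 23 CG. At Snhg3 and Firre the summits both lay 39 bases after the start, with 3.75-fold and 3.92-fold. Such a window held the summit of 2.67% of the K27M-only intergenic peaks and of 4.95% of the shared ones, a difference of −2.27 percentage points (95% Newcombe interval −4.40 to −0.222). Both shares are minimums where windows are missing, and the difference depends on which lncRNAs had one.

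The K27M-only intergenic peaks were mostly small. Their fold enrichment, the ratio of ChIP signal at the summit to local background as the authors' peak caller gave it, ran from 1.98 to 13.1 with a median of 4.83, and the middle of the distribution lay between 4.03 and 5.81. Shared intergenic peaks of the same list had a median of 5.65 and reached 47.6. The −log10 q had a median of 5.29 and a maximum of 26.5, against a median of 10.6 at shared peaks. A −log10 q of at least 10 was reached by 75 of the 673 peaks (11.1%) and by 52.1% of shared intergenic peaks, while 38 peaks lay below 2, close to the limit of calling at q = 0.05. The plot of strength and distance shows them packed into the lower left of the cloud of shared peaks. The median width was 382 bp, compared with 504 bp at shared intergenic peaks.

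The summits lay a median of 28897 bp from the nearest protein-coding gene, with quartiles at 8566 and 95056 bp. Shared intergenic peaks had a median of 25046 bp and the 457 H3.3WT-only intergenic peaks of 44734 bp. Of the K27M-only intergenic peaks, 119 (17.7%) lay 1 to 5 kb from a gene, 165 (24.5%) 5 to 20 kb, 233 (34.6%) 20 to 100 kb and 156 (23.2%) farther than 100 kb. H3.3WT-only peaks lay farther than 100 kb more often, in 31.9%, a difference of −8.77 points (−14.1 to −3.48). Where the strand of the gene was known, 272 of 499 K27M-only intergenic peaks (54.5%, 50.1 to 58.8%) lay on the side of its start, against 50.7% of shared intergenic peaks and 58.0% of H3.3WT-only ones. The nearest H3.3WT peak was a median of 84204 bp away. It lay within 1 kb at 28 of the K27M-only intergenic peaks (4.16%), within 10 kb at 134 (19.9%), and farther than 100 kb at 320 (47.5%).

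**Figure D1:**
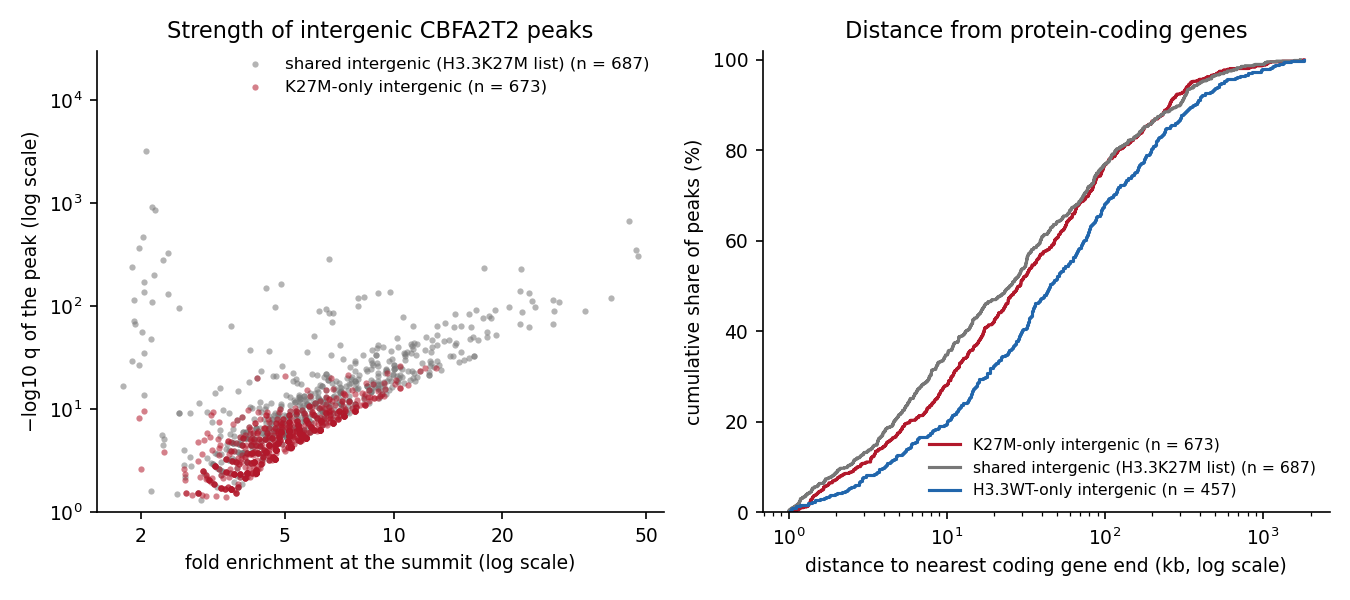
Left, fold enrichment (log scale) against −log10 q (log scale) of each intergenic peak of the H3.3K27M list, with the 673 K27M-only peaks in red and the 687 shared ones in grey. Right, cumulative share of peaks (%) against the distance from the nearest protein-coding gene (kb, log scale) for K27M-only, shared and H3.3WT-only (blue) peaks. No red point exceeds 13.1-fold while grey points reach 47.6-fold, and the blue curve lies to the right with a median of 44734 bp against 28897 bp for the red one.

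At the limits of the definition, the peaks nearest to a gene were at Herpud1, an endoplasmic reticulum stress gene (1058 bp, 4.52-fold), Foxj1, the regulator of motile cilia (1080 bp, 3.73-fold), and Bend3 (1094 bp, 3.91-fold). Just under 1 kb and so outside the set were unshared peaks at Hes1 (996 bp, 4.20-fold), the AP-1 gene Fosl2 (970 bp, 7.42-fold) and Rabl6 (959 bp, 4.93-fold). The peaks closest to an H3.3WT peak were 85947 bp from Otx2, with a gap of 76 bp, at Cdkn1b (278 bp) and far from Bcl11a (317 bp). The shared intergenic peaks of least overlap, near Psg20, Mvk and Znfx1, overlapped an H3.3WT peak by 67, 101 and 106 bp.

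The 10 K27M-only intergenic peaks of highest fold lay 2019 to 341260 bp from the nearest coding gene, and their neighbours had varied functions. The highest fold was 13.1, with a −log10 q of 25.3, at chr8:121673909-121674389, 21313 bp on the start side of Zcchc14, which codes for a CCHC zinc finger protein. A peak of 12.2-fold (−log10 q 24.98) lay 322359 bp from Plod2, a collagen lysyl hydroxylase, and the nearest H3.3WT peak was 1548630 bp away. One of 11.8-fold (−log10 q 23.7) lay 32637 bp from Klhl42, a substrate adaptor of cullin ubiquitin ligases. The highest −log10 q of all, 26.5 with 10.4-fold, lay 5217 bp beyond the end of Fam110a, at chr2:151963926-151964444. Sft2d2, a vesicle transport gene, had a peak of 10.1-fold 4421 bp from its start, and Dnajb12, an endoplasmic reticulum co-chaperone gene, had one of 9.60-fold (−log10 q 22.6) 8380 bp from its end. A peak of 10.4-fold lay within the lncRNA Gm5095, 198518 bp from the semaphorin gene Sema6a. The remaining 3 of the 10 highest folds fell inside pseudogenes and are described with those below. By −log10 q, the list of the 10 highest also held a peak 21372 bp from the surface antigen gene Ly6c2, with 20.004 at only 4.19-fold, and one 13693 bp from 2610001J05Rik, with 19.9 at 6.72-fold. The widest of the K27M-only intergenic peaks spanned 1410 bp, 102962 bp from the collagen gene Col8a1. The next spanned 1343 bp, 16576 bp from the lens galectin-related gene Grifin, and 1295 bp, 29608 bp from Bcor. One of 1125 bp lay inside the pseudogene Gm5835, 509135 bp from its nearest coding gene Cdc73, and one of 1104 bp lay 1642 bp from Camk2n1, which codes for an inhibitor of CaM kinase II. Wide peaks were not the strongest, with folds from 4.41 at Camk2n1 to 7.68 at Grifin.

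Sox2, Sox1, Hes1, Dll1, Id3 and Nes were among the neural stem and progenitor genes next to these peaks. Each peak was assigned the nearest protein-coding gene, which gave 592 genes, or 2.70% of the 21887 in the annotation, and such an assignment does not show that a peak acts on that gene. Of 38 neural stem and progenitor genes, 12 (31.6%) were nearest to a K27M-only intergenic peak, against 6 (15.8%) for shared intergenic peaks and 9 (23.7%) for H3.3WT-only ones. The backgrounds for the latter pair over all coding genes were 2.61 and 1.90%. All 3 classes of peak thus had shares above their background at these genes. That background counts every coding gene alike, whatever the length of intergenic sequence around it. The excess therefore does not show a preference for these genes. The classes differ in size, and the share of peaks assigned to the list was 2.38% for the 673 K27M-only, 1.16% for the 687 shared and 2.41% for the 457 H3.3WT-only peaks.

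Among the SOX factors that keep neural progenitors undifferentiated, Sox2 had a K27M-only peak of 6.46-fold (−log10 q 9.52) at chr3:34646121-34646614, 3693 bp before the gene and within the span of Sox2ot. It was the only peak of either list within 100 kb of Sox2, and the nearest H3.3WT peak was 564419 bp away. Sox1 had one of 7.35-fold (−log10 q 13.7) at chr8:12477973-12478438, 78674 bp beyond its end. Sox1 also had a shared peak at its gene end, with 3.58-fold in the H3.3K27M list and 6.15-fold in the H3.3WT list. Sox11, which acts in young neurons, had one of 6.33-fold 204793 bp from its start.

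The Notch pathway was represented by its ligand Dll1 and its effector Hes1, a basic helix-loop-helix repressor. Dll1 had a peak of 6.67-fold (−log10 q 8.30) at chr17:15380590-15381003, 3896 bp before its start, and no other peak of either list within 100 kb. Hes1 was the nearest gene of 3 K27M-only intergenic peaks. The strongest, 8.75-fold with a −log10 q of 17.8 at chr16:30155443-30156364, lay 88360 bp from the gene within the lncRNA Gm26562. The others had 3.93-fold at 56334 bp and 3.18-fold at 1899 bp. A further pair of unshared peaks lay at the ends of Hes1, with 4.20-fold and 4.78-fold, so the H3.3K27M list held 5 peaks within 100 kb and the H3.3WT list none.

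Id3, which sequesters basic helix-loop-helix factors and responds to BMP, had a pair of K27M-only intergenic peaks on its start side, at 8566 bp with 6.04-fold and at 3314 bp with 5.58-fold. Its single H3.3WT-only neighbour lay 38610 bp away with 4.999-fold. Nes, the gene for the progenitor filament nestin, had one of 5.39-fold 2945 bp beyond its end, in a region with 11 H3.3K27M and 7 H3.3WT peaks within 100 kb, most of them at neighbouring genes. Nestin itself also had a shared peak inside the gene, at 6.44-fold in the H3.3K27M list and 6.81-fold in the H3.3WT list. The homeobox gene Otx2 went the other way in number, with 2 H3.3K27M and 3 H3.3WT peaks within 100 kb. Its K27M-only intergenic peaks had 5.90-fold and 3.58-fold, and the second lay 76 bp from an H3.3WT-only peak of 5.499-fold. The remaining members of the list were weak, from 2.31-fold near Meis1 and 2.77-fold near Pou3f3 to 4.09-fold near Meis2.

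**Figure D2:**
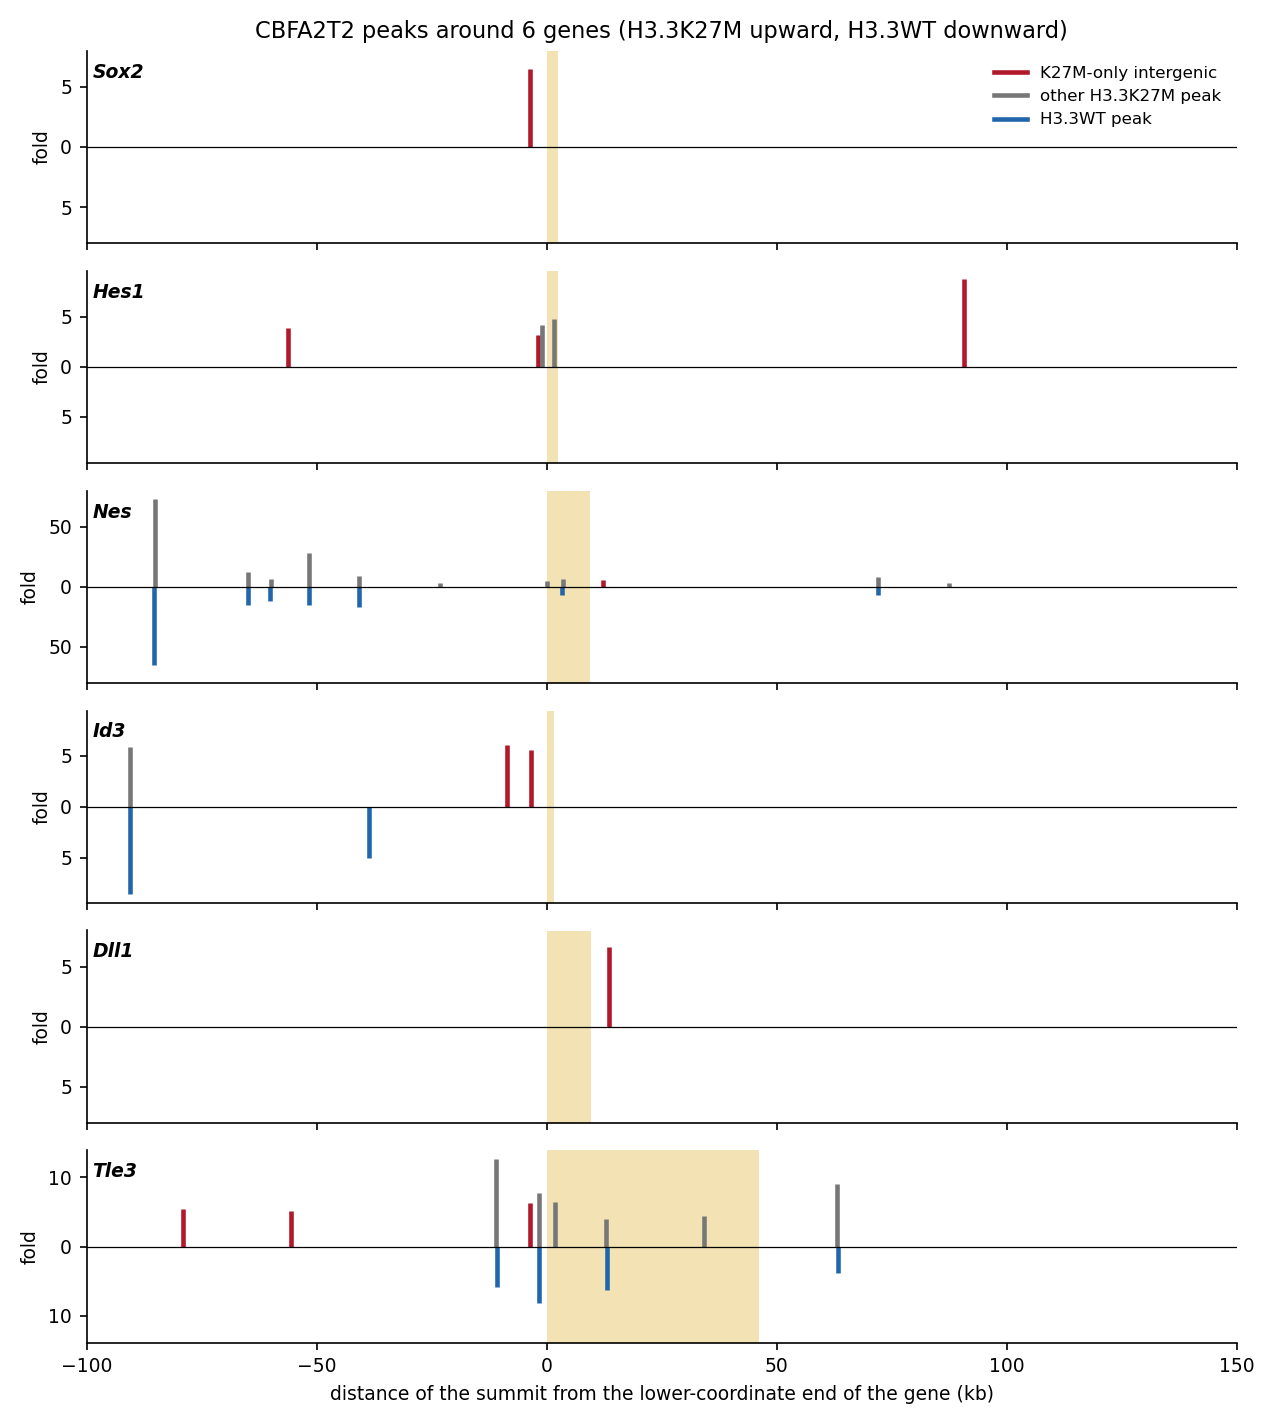
CBFA2T2 peaks around 6 genes, drawn as bars at the distance of the summit from the lower-coordinate end of the gene (kb) with the authors' fold enrichment as height, upward for H3.3K27M and downward for H3.3WT, and with the gene shaded. Red bars are K27M-only intergenic peaks, grey bars are other H3.3K27M peaks and blue bars are H3.3WT peaks. No blue bar appears at Sox2, Hes1 or Dll1, whereas Nes and Tle3 have 7 and 4.

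Of 38 Wnt pathway genes, 6 (15.8%) were nearest to a K27M-only intergenic peak, against 4 for shared and 3 for H3.3WT-only peaks. They included 3 genes for TLE (Groucho) corepressors, which bind TCF and LEF factors in the absence of β-catenin. Tle3 was nearest to 3 peaks, with 6.26-fold at 3545 bp, 5.13-fold at 55679 bp and 5.43-fold at 78966 bp, all on its start side. Between those at 3545 and 55679 bp lay a shared peak with 12.6-fold in the H3.3K27M list and 5.82-fold in the H3.3WT list. Another shared peak lay closer to the gene, at 1770 bp, with 7.82-fold in the H3.3K27M list and 8.13-fold in the H3.3WT list. Tle1 had one of 5.59-fold 4815 bp before its start and Tle4 one of 4.10-fold 237594 bp away. Lef1, a DNA-binding effector of the pathway, had a pair of peaks before its start, with 5.33-fold at 7836 bp and 3.62-fold at 4108 bp. Its only H3.3WT peak within 100 kb lay 55662 bp away with 4.75-fold. Nkd1, a feedback inhibitor, had one of 5.34-fold and the receptor gene Fzd2 one of 4.02-fold.

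The glial list gave 3 of 24 genes (12.5%), against 1 for each of the other classes of peak. Slc1a3, the glutamate transporter of astrocytes and radial glia, had peaks of 6.92-fold (−log10 q 12.9) and 3.28-fold more than 100 kb from its start, both within the lncRNA Gm31340. Gja1, which codes for connexin 43, had one of 4.78-fold 2870 bp before its start and one of 4.10-fold 107191 bp beyond its end, and the nearest H3.3WT peak was 654712 bp from the first. Mog, a myelin gene, had one of 4.87-fold. Of 33 neuron genes, 3 (9.09%) were nearest to a K27M-only intergenic peak against 6 for shared peaks, among them Slc17a7, the vesicular glutamate transporter (6.31-fold, 1672 bp before its start), and Bcl11a. The 3 peaks assigned to Bcl11a lay 566535 to 891668 bp beyond its end. Among 25 genes of non-neural cell types, Cdx2 (5.11-fold) and Cdh5 (4.17-fold) were nearest to one, an 8% share that also exceeded the 2.70% of all coding genes. A share above that background was thus not limited to genes of the neural lineage.

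The MTG family, its corepressors and its DNA-binding partners gave 4 of 34 genes (11.8%), against 5 for shared intergenic peaks. Cbfa2t2 itself had a pair of K27M-only intergenic peaks on its start side, with 3.99-fold at 8121 bp and 2.88-fold at 9411 bp, both weak beside the shared peaks inside the gene, which had 13.3-fold and 31.1-fold in the H3.3K27M list. The family member Runx1t1 had one of 4.79-fold 176666 bp away, Runx1 one of 5.57-fold 180637 bp away, and Tbl1xr1, a subunit of the NCoR complex, one of 5.47-fold 522285 bp away. Of 39 genes for Polycomb proteins, H3K27 enzymes, H3.3 and its chaperones, the single neighbour was Cbx8, a chromodomain subunit of PRC1 (3.71-fold, 12672 bp before its start), a share of 2.56% and close to that of all coding genes. Bcor, the scaffold of a variant PRC1 complex, was not on that list. It was nearest to 3 K27M-only intergenic peaks beyond its end, of 8.35-fold at 4548 bp, 5.60-fold at 29608 bp and 8.48-fold at 233361 bp, and the H3.3WT list had a single peak within 100 kb of the gene, inside it, with 7.84-fold.

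Developmental regulators typical of Polycomb gave 7 of 63 genes (11.1%), against 6 for each of the other classes. They were the forkhead genes Foxd3 (4.74-fold and 3.44-fold) and Foxa2 (5.88-fold), the Iroquois genes Irx4 (5.74-fold), Irx3 (4.52-fold) and Irx5 (4.17-fold), the homeobox gene Dlx2 (4.87-fold) and Hoxb9 (4.10-fold). All of these peaks lay more than 20 kb from the gene, the closest 20029 bp from Hoxb9. Of 41 immediate early and stress response genes, 5 (12.2%) were nearest to a K27M-only intergenic peak, against 11 (26.8%) for shared ones. Those at K27M-only peaks were Klf6 (5.60-fold), Mycn (5.42-fold), Klf9 (5.11-fold), Nr4a3 (3.92-fold, 1900 bp before its start) and Ier2 (2.66-fold). Of 35 BMP and TGF-β genes, Id3 was the only neighbour, a share of 2.86%.

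Among 45 genes of the tricarboxylic acid cycle, α-ketoglutarate and the amino acid response, 2 (4.44%) were neighbours, both of them stress-induced genes downstream of ATF4. Ddit4, an inhibitor of mTORC1, had peaks of 4.20-fold at 1161 bp and 4.92-fold at 13192 bp, in a region that held 10 H3.3K27M and 3 H3.3WT peaks within 100 kb. A shared peak between them had 11.5-fold in the H3.3K27M list and 19.6-fold in the H3.3WT list. Chac1, a glutathione-degrading enzyme gene, had peaks of 3.296-fold and 3.02-fold within 2 kb of its end. Cell cycle and p53 genes gave 4 of 27 (14.8%) against 3 for shared and 0 for H3.3WT-only peaks. They were the cyclin gene Ccnd2 (4.42-fold, 100318 bp away), the kinase gene Cdk6 (4.06-fold and 4.07-fold), and the inhibitor genes Cdkn1b (3.56-fold, 1515 bp) and Cdkn2b (3.93-fold, 2875 bp). The plot of gene lists sets these shares side by side.

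**Figure D3:**
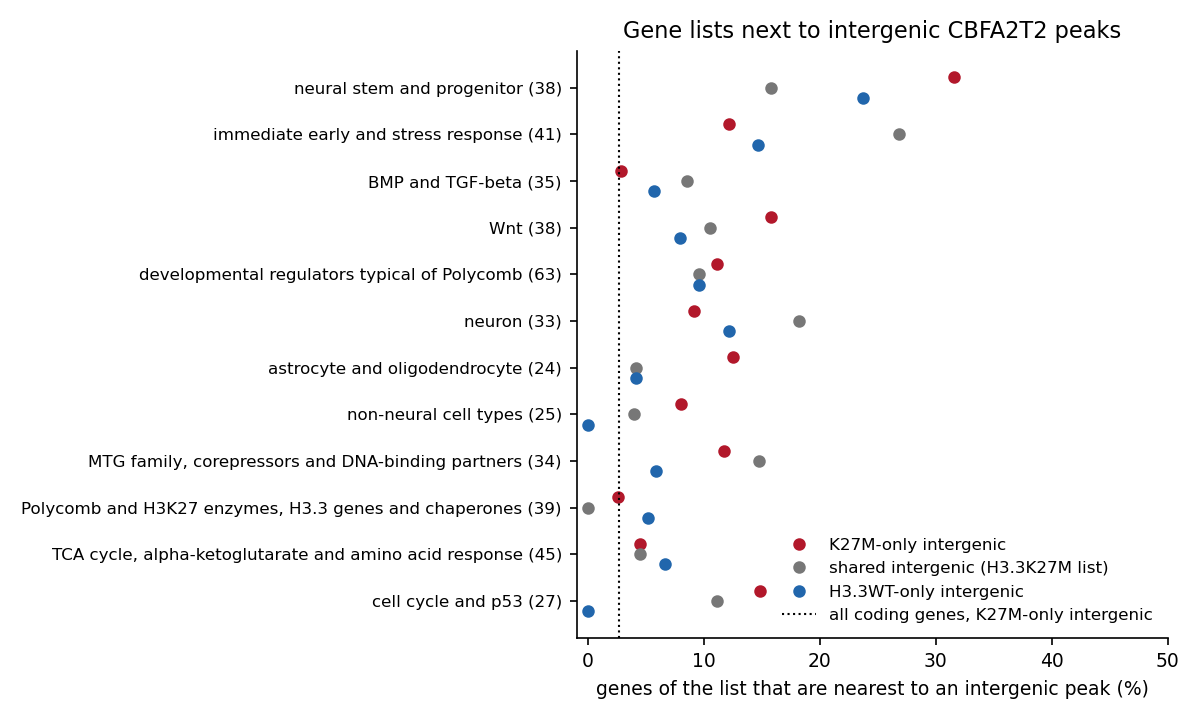
Share of the genes of each list (%, with the number of genes in brackets) that were nearest to a K27M-only (red), shared (grey) or H3.3WT-only (blue) intergenic peak, and the share of all coding genes nearest to a K27M-only intergenic peak as a dotted line at 2.70%. The neural stem and progenitor list has its red point farthest right, at 31.6%, and the immediate early list its grey one, at 26.8%.

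Most of the K27M-only intergenic peaks had no second one within 10 kb. Shared peaks and peaks at or inside genes were left out of this count. Another lay within 10 kb of 51 of them (7.58%, 5.81 to 9.83%), compared with 17.6% of shared intergenic peaks, a difference of −10.0 points (−13.5 to −6.55), and with 4.60% of H3.3WT-only ones. The share was 3.17% with both lists limited to at least 5-fold, 4.07% with lists of equal length and 2.74% with a −log10 q of at least 5 required of H3.3K27M peaks alone. There were 24 pairs, with summits a median of 2041.5 bp apart, and a single group of 3. That group lay over a tRNA cluster 15701 to 18169 bp beyond the end of Osbp, the oxysterol-binding protein gene, and its peaks had 4.20-fold, 3.13-fold and 4.53-fold. Of the 592 nearest genes, 526 had 1 peak, 52 had 2, 13 had 3 and 1 had 4. The 4 at Gm52481, on the Y chromosome, ranged from 3.10-fold to 6.15-fold. Besides Hes1, Tle3, Bcor, Bcl11a and Osbp, the genes with 3 were the focal adhesion gene Tns1, Rhou, the ubiquitin ligase gene Pja1, Zswim6, Zfp608, Psd2, Lrrc74a and 1700001O22Rik. The highest folds among them were 9.45 near Psd2, 6.78 near Pja1 and 6.42 near Lrrc74a.

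For most of the K27M-only intergenic peaks, neither list had a peak at an end of the nearest gene. The share over all coding genes is not given here, and whether these neighbours differ from coding genes at large was not tested. An H3.3K27M peak within 1 kb of an end of the nearest gene was present for 215 of the K27M-only intergenic peaks (31.9%), against 37.0% of shared intergenic peaks, a difference of −5.03 points (−10.04 to 0.0266). With both lists limited to at least 5-fold, the share of K27M-only intergenic peaks fell to 16.7%. The same limit applied to the peaks at gene ends and to the H3.3WT list, so this share and the one above count different sets of peaks. An H3.3WT peak was there for 170 (25.3%), against 30.3%, a difference of −5.02 points (−9.74 to −0.254). Neither list had one for 436 of the 673 (64.8%), although such genes can hold peaks farther inside, as Cbfa2t2, Tle3 and Bcor did. The H3.3K27M list alone had one for 67 (9.96%), among them those near Hes1, Nes, Ddit4, Runx1t1 and Klhl42.

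Annotated non-coding genes and pseudogenes lay within 1 kb of 243 of the summits (36.1%, 32.6 to 39.8%). Such genes and their flanks cover 14.8% of the sequence that counts as intergenic here. The share was close to that of shared intergenic peaks, 35.5%, and above that of H3.3WT-only ones, 22.5%, by 13.6 points (8.19 to 18.7). The kinds of gene differed between the classes, as the plot of shares by gene type shows.

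**Figure D4:**
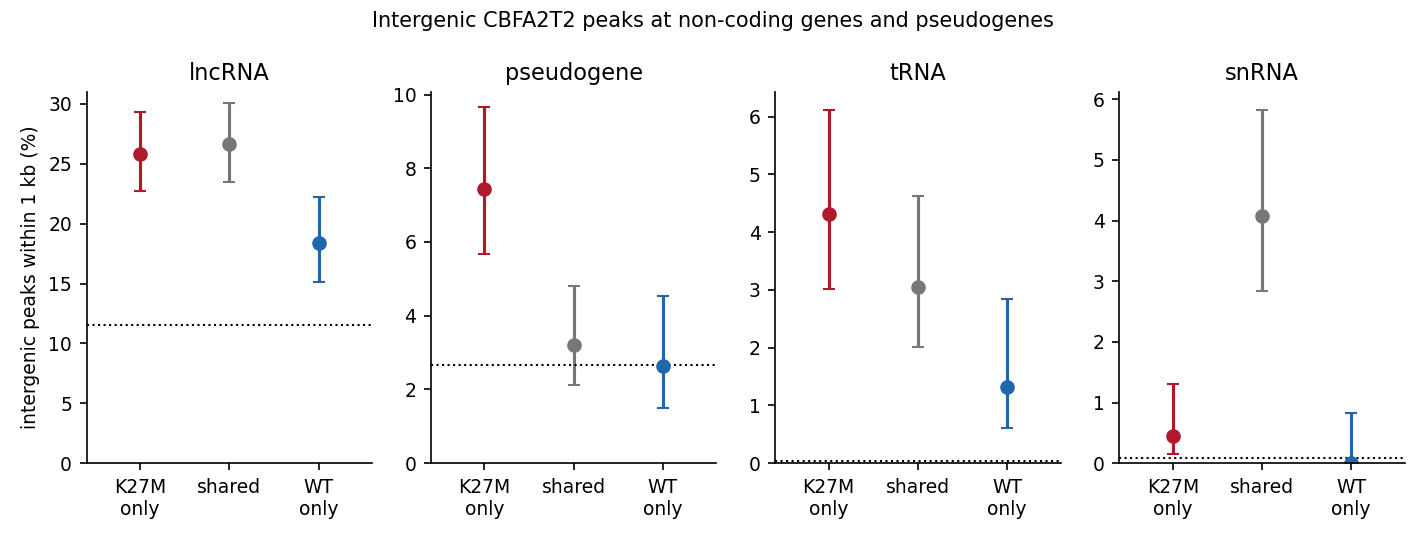
Share of intergenic peaks (%) with the summit inside or within 1 kb of a lncRNA, pseudogene, tRNA or small nuclear RNA gene, for K27M-only, shared and H3.3WT-only peaks, with 95% Wilson intervals as bars. The dotted line is the share of intergenic sequence that lies so close to such a gene. K27M-only peaks are highest at pseudogenes, 7.43%, and shared peaks at small nuclear RNA genes, 4.08%.

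lncRNA genes accounted for 174 of the K27M-only intergenic peaks (25.9%), against 26.6% of shared and 18.4% of H3.3WT-only peaks and 11.5% of intergenic sequence. They were 154 of the 8146 lncRNA genes outside coding genes, or 1.89%. Apart from Gm26562 near Hes1 and Gm5095 near Sema6a, the highest folds were beside Gm36416 (9.45-fold), inside 4930440I19Rik (9.39-fold), A630089N07Rik and Gm32718 (both 8.35-fold), and beside Gm51459 (8.26-fold). Of these summits, 142 lay inside the lncRNA and 18 fell into a promoter window described above. Windows may be missing for some lncRNAs, so 18 is a minimum for summits at a lncRNA start.

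tRNA genes, which RNA polymerase III transcribes from promoters inside the gene, lay within 1 kb of 29 of the K27M-only intergenic peaks (4.31%). Only 0.0338% of intergenic sequence is so close to one. The share was 3.06% at shared peaks, lower by 1.25 points (−0.782 to 3.35). At H3.3WT-only peaks it was 1.31%, lower by 2.996 points (0.9999 to 4.94). The summit lay inside a tRNA gene in 1.04% of K27M-only and 1.16% of shared intergenic peaks. These 29 peaks reached 47 of the 374 tRNA genes outside coding genes (12.6%). Shared intergenic peaks reached 43 of them (11.5%) and H3.3WT-only ones 12 (3.21%). The strongest of the 29 K27M-only peaks covered n-TMcat16, a methionine tRNA gene, with 4.85-fold and a −log10 q of 10.2. Others covered the histidine tRNA genes n-THgtg3 and n-THgtg5 near Shf (4.94-fold), n-TKctt26 near Mdm4 (4.91-fold), n-TGtcc3 near Cfap126 (5.09-fold), n-TSgct5 in the histone gene region near H2bc11 (4.64-fold) and n-TLcag5 with n-TLcag4 near Pllp (5.505-fold, the highest at a tRNA gene). With a median of 4.17-fold, peaks at tRNA genes were weaker than those at lncRNAs, with 4.58-fold.

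Other small RNA genes made a short list. The 5S rRNA genes, also transcribed by RNA polymerase III, gave 3 of 57 genes (5.26%), all in the cluster on chromosome 8 and all weak, namely n-R5s108 near Gas8 (3.69-fold), n-R5s149 and n-R5s134 near Rhou (2.99-fold and 3.15-fold). The cluster consists of near-identical copies, so that the copy bound is uncertain. Rn7sk, which codes for the 7SK RNA that holds back the elongation factor P-TEFb, had a summit 35 bp outside the gene, with 4.49-fold and a −log10 q of 7.99. Small nuclear RNA genes as a whole were rare. They lay near 3 of the K27M-only intergenic peaks (0.446%), the other two being Gm26243 (5.90-fold) and Gm24535 (5.57-fold), against 28 shared ones (4.08%), a difference of −3.63 points (−5.41 to −2.12). These 3 were 0.462% of 650 such genes. Small nucleolar RNA genes were Snora73a, within the Snhg3 host, and Gm23639, or 0.228% of 878.

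MicroRNA genes lay within 1 kb of 4 peaks (1.01% of 396 genes). The peak at Mir124a-3, a copy of the neuronal miR-124, covered the whole gene, with 4.18-fold and its summit 45 bp away. Those at Mir760 (3.49-fold) and Mir3098 (3.43-fold) lay 285 and 708 bp from the gene. The peak at Mir1983 covered the gene with its summit inside it, but was near the limit of calling, with 3.32-fold and a −log10 q of 1.72. Its mature sequence, from RefSeq on GRCm38.p6, is shown as the one microRNA with a summit inside its gene, with the seed, bases 2 to 8, in capitals.
mmu-miR-1983, chr13:21896930-21896950, minus strand: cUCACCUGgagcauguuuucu

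Pseudogenes are decayed gene copies, and processed ones are copies of mature mRNAs without introns. A pseudogene lay within 1 kb of 50 of them (7.43%, 5.68 to 9.66%), against 3.20% of shared and 2.63% of H3.3WT-only peaks and 2.67% of intergenic sequence. The 50 pseudogenes reached were 0.597% of the 8381 outside coding genes. The summit was inside the pseudogene in 47 of the K27M-only intergenic peaks (6.98%, 5.29 to 9.16%) but in 12 shared ones (1.75%), a difference of 5.24 points (3.11 to 7.54). It was inside one in 8 H3.3WT-only peaks (1.75%), a difference of 5.23 points (2.86 to 7.58). Among peaks of like strength, with a −log10 q from 3 to 10, the shares were 29 of 464 (6.25%) for K27M-only and 3 of 297 (1.01%) for shared peaks. Among the 75 strongest K27M-only peaks, with a −log10 q of at least 10, a pseudogene lay within 1 kb of 13 (17.3%, 10.4 to 27.4%), against 3.91% of the shared peaks of that strength.

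The pseudogenes at K27M-only peaks were mostly short. Their median length was 1053 bp, compared with 15946.5 bp at shared and 13990.5 bp at H3.3WT-only peaks. In 45 of the 47, at least 90% of the peak lay inside the pseudogene. Pseudogenes of at most 3 kb held the summit of 41 of the 673 K27M-only intergenic peaks (6.09%, 4.52 to 8.16%) and of 2 of the 687 shared ones (0.291%, 0.0799 to 1.06%). The symbols at 6 of the 47 name a ribosomal protein. No such symbol occurred at the 12 shared or the 8 H3.3WT-only intergenic peaks inside a pseudogene, which are too few for a comparison. The share of such symbols and the median length over all pseudogenes are not given here. Peaks at pseudogenes had a median of 5.15-fold, against 4.79-fold for the other K27M-only intergenic peaks, and supplied 3 of the 10 and 5 of the 20 highest folds.

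The strongest by fold was at Rpl19-ps11, a copy of the gene for the large-subunit protein RPL19, at chr8:19492940-19493455, with 11.0-fold and a −log10 q of 17.3. The peak lay wholly inside the copy and covered 73.3% of it. Rps3a2, a copy of the small-subunit gene Rps3a, had 10.4-fold (−log10 q 16.0) at chr14:88123210-88123786. The nearest H3.3WT peak was 8641966 bp from it, the largest such gap of the K27M-only intergenic peaks. Gm15427 had 10.2-fold (−log10 q 19.2) at chr1:95498606-95499020 and Gm13456 had 5.01-fold with a −log10 q of 20.9. Further ribosomal protein copies were Rpsa-ps10 (8.32-fold), Rpl31-ps8 (8.81-fold) and Rps6-ps4 (7.08-fold). The thioredoxin copy Txn-ps1 had 7.02-fold and Gm10073 6.49-fold with a −log10 q of 15.4. Among long pseudogenes, the transcribed Erdr1 near Mid1 held the summit of a peak of 7.47-fold (−log10 q 21.5), of which only 34.4% lay inside. Vmn2r-ps17 held a peak of 7.30-fold. Processed copies share sequence with their parent gene, and how the authors treated reads that match several places is not given in the sources used here, so the copy a peak belongs to is uncertain. Whether these peaks reflect binding of CBFA2T2 at the copy or material of another origin, such as cDNA, was not tested.

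**Figure D5:**
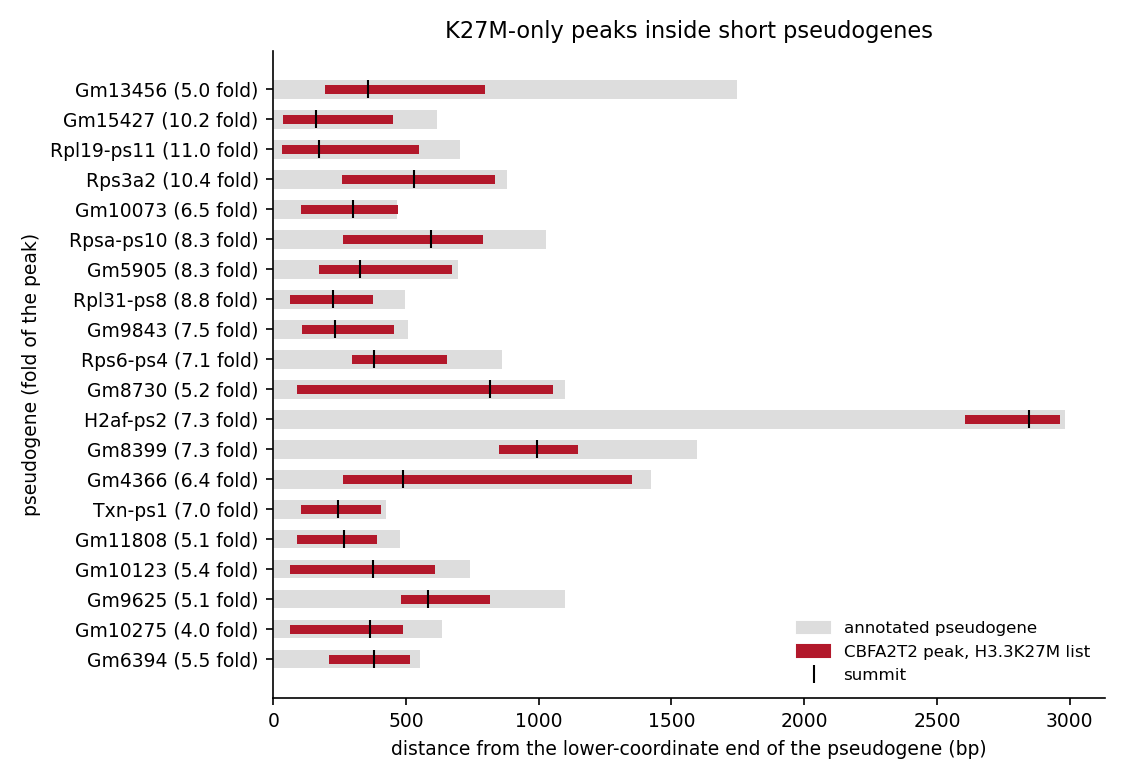
The 20 K27M-only intergenic peaks of highest −log10 q whose summit lay in a pseudogene of at most 3 kb, with the pseudogene as a grey bar, the peak as a red bar and the summit as a black tick, against the distance from the lower-coordinate end of the pseudogene (bp). Fold enrichment stands beside each name. The red bars keep within the grey ones except for a slight excess at Gm10073, where 99.5% of the peak lies inside.

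Other K27M-only peaks were compared in the same way. Of the 761 K27M-only peaks inside a coding gene, 15 (1.97%) had the summit in a pseudogene, with a median length of 947 bp, against 2 (0.246%) of the 813 shared ones, a difference of 1.73 points (0.717 to 2.99). Ribosomal protein symbols made up 5 of these 15 and 0 of the 2 shared ones, which are too few for a comparison. At gene ends there was no such difference beyond counting error, with 4 of 1352 K27M-only peaks (0.296%) against 7 of 3986 shared ones (0.176%), or 0.120 points (−0.139 to 0.591).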

How the data were processed

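CBFA2T2 ChIP-seq peaks were analysed from 1 H3.3WT and 1 H3.3K27M library of NE-4C cells; the other 17 samples of the series were not analysed here. The submitters' processing notes name Trim Galore for trimming and MACS2 for calling, with the build mm10 and without versions. Aligner, duplicate handling and caller settings are not given in the sources used here. The deposited peak names state 1 ChIP against an input, so no replicates were pooled. Each peak's fold enrichment (a ratio) and −log10 q were taken unaltered from the authors' deposited lists. The deposited score is the −log10 q multiplied by 10 and truncated, and it was left unused, as was the deposited −log10 p. The smallest −log10 q was 1.31 for H3.3K27M and 1.33 for H3.3WT.

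Summits were compared with gene spans of RefSeq GRCm38.p6 (21887 protein-coding genes, 27546 non-coding genes and pseudogenes), all 1-based. A non-coding gene counted when the summit lay inside it or within 1 kb. Promoter windows of lncRNAs and mature microRNAs came from RefSeq sequence tables, where 3 of the 4 microRNA genes matched. Motifs were searched on both strands, and matches of different motifs were counted separately even where they overlapped. Shares carry 95% Wilson intervals and differences 95% Newcombe intervals. The classification was tested on simulated peaks. Python 3.11.15, NumPy 2.4.6, pandas 2.3.3 and matplotlib 3.10.9 were used. The 12 gene lists (436 symbols, all found), the definition of the K27M-only intergenic peaks and the comparisons were chosen with earlier results of these data known. Named peaks were the 10 highest by fold and by −log10 q, the 5 widest, those at the limits of the definition, groups of 3 and up to 12 per type of non-coding gene; named genes were their neighbours, those nearest to 3 or more peaks and up to 6 per list. Pseudogene length, strength bands and the lncRNA windows were added after the data were seen. The planned search for motifs at summits needs a genome, which was not used here. A gene that the naming rule picked is not reported here.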

Additional observations from a re-analysis of the deposited data

How the results depend on the processing

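No paired analysis was possible because each genotype had 1 CBFA2T2 library; for the same reason no replicate could be left out. The alternatives restricted both lists to a −log10 q of at least 5 or a fold of at least 5, took equal numbers of peaks from both, applied the −log10 q limit to H3.3K27M alone, counted an H3.3WT peak within 1 kb as shared, or demanded 5 kb, or 1 kb for the whole peak, from coding genes. The cause of the changes below was not tested beyond what each restriction removes. Where the H3.3K27M list was limited, its boundary peaks were limited in the same way. In the order of the first 4 alternatives, the number of K27M-only intergenic peaks became 439, 378, 442 and 365, their median fold 5.59, 5.86, 5.45 and 5.74, the share whose nearest gene had an H3.3K27M boundary peak 25.7, 16.7, 26.2 and 24.9%, and the share within 10 kb of another 5.01, 3.17, 4.07 and 2.74%. An H3.3WT peak lay within 10 kb of 16.2% with the −log10 q limit, 11.1% with the fold limit, 16.4% with sharing within 1 kb and 13.9% at 5 kb. At 5 kb the median distance was 46138 bp and the boundary share 28.5%. The share at a non-coding gene or pseudogene was 30.4% with the fold limit, 28.2% with the summit inside the gene and 29.7% without pseudogenes. The share with the summit inside a pseudogene stayed between 6.09 and 7.95%, and its difference from shared peaks between 4.93 and 6.28 points with the interval above 0, in all 9 alternatives, which were added after the data were seen. The planned motif comparison at summits and its narrower window were not run. Peaks near the limit of calling can be present in one list and missing from the other, and depth is unknown, so absence from the H3.3WT list does not show absence of binding.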

Other observations

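The K27M-only intergenic peaks were spread over all chromosomes, from 59 on chromosome 2 to 4 on Y. Chromosome 18 held 4.61% of them and 2.04% of shared intergenic peaks, chromosome 13 held 6.69% against 3.49%, and chromosome 9 held 5.05% against 8.73%. The X chromosome held 6.24% against 5.39%.

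Other motifs in the 18 lncRNA promoter windows were the E-box CAGNTG in 10 (55.6%, against 56.6% of all lncRNA windows) and TATAAA in 4 (22.2%, against 15.5%). The RUNX core TGNGGT was in 12 (66.7%, 43.7 to 83.7%), against 48.9% of all lncRNA windows. It was in 33.3% (20.2 to 49.7%) of the windows at shared intergenic peaks. These intervals overlap, and the first covers the share of all lncRNA windows. The AP-1 site TGANTCA occurred in none of the 18, which allows up to 17.6% by the Wilson interval, in none of the 36 windows at shared intergenic peaks and in 9.31% of all lncRNA windows. These are matches of letters and not sites of binding.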
